A study of Mus musculus with 2 samples.

Results

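Genes of the amino acid carrier families Slc1a, Slc3a, Slc6a, Slc7a, Slc36a, Slc38a and Slc43a were read on arrays of bone marrow-derived macrophages (BMDMs) with and without IL-4. Members were all probes that are not controls and whose RefSeq accession carries a mouse symbol of these families, apart from Slc7a2 and Slc7a11, and each gene was read from its brightest probe. They came to 60 genes, measured by 77 probes, of 20650 named genes on the arrays. Of these, 59 are transporter genes, and Slc7a6os shares only the prefix, since it is named for its place on the strand opposite Slc7a6. BMDMs, macrophages grown from marrow with the growth factor M-CSF, came from male mice with floxed Crif1 (Crif1 f/f) at 8 weeks of age. No Cre allele is given for the cells on the arrays. The untreated BMDMs and the BMDMs given the cytokine IL-4 shared this genotype, the latter were exposed for 18 h, and the Cy3-labelled RNA of each was put on an Agilent array of its own. The study read the arrays for secreted factors that IL-4 induces, and also grouped the genes higher and lower with IL-4 by biological process (Gene Ontology). Each condition thus had 1 array, so no difference could be tested over replicates, p-values are left out, and having 2 arrays in all limits the precision.

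Amino acids cross membranes through carriers that differ in substrate, in coupling to ions and in place within the cell. Slc7a light chains work as exchangers at the plasma membrane once bound to a heavy chain of the Slc3a family, Slc1a and Slc38a carriers are mostly driven by sodium, and several Slc36a and Slc38a proteins sit on lysosomes. In macrophages these carriers feed arginine, glutamine and essential amino acids into protein synthesis, nitric oxide and polyamine production, and into the signals read by the kinase complex mTORC1.

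Slc1a4 (NM_018861), which exchanges alanine, serine, cysteine and threonine, was the sole member with a difference of at least 2-fold in either direction among those well above background. At the lower limit of 1.5-fold, Slc43a2 and Slc7a7 were lower in IL-4-treated BMDMs. The stretches before the transcription starts of these 3 genes are shown because they carry the largest differences among the members measured on both arrays. For Slc43a2 and Slc7a7 they were chosen after their values were seen. They hold the 250 bases before the most upstream start in RefSeq (GRCm38.p6), 5′ to 3′ on the strand of the gene, with Slc1a4 at chr11:20332714-20332963 on the minus strand, Slc43a2 at chr11:75531444-75531693 on the plus strand and Slc7a7 at chr14:54417945-54418194 on the minus strand. Capitals mark a match to 1 of 3 motifs.
Slc1a4: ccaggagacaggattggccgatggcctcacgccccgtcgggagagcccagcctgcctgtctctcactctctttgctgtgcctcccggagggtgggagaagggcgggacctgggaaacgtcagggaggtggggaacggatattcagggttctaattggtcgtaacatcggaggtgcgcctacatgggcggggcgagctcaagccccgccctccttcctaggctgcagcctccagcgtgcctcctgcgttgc
Slc43a2: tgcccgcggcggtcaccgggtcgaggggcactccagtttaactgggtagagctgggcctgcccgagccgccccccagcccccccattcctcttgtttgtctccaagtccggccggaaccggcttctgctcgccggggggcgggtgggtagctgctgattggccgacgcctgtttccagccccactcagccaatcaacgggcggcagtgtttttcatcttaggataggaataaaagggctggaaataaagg
Slc7a7: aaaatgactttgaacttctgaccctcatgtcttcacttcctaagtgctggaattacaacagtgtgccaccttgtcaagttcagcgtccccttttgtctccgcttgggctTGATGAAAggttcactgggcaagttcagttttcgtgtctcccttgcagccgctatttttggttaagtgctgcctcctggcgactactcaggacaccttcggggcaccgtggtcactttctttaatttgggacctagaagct
The motifs searched on both strands were TTCNNNNGAA, the form bound by STAT6, the factor that IL-4 receptors activate, and the cores TGATGCAA and TGATGAAA, the forms bound by ATF4, the factor of the amino acid response. The window of Slc7a7 holds TGATGAAA, with its first base 141 bases before the start, and the windows of Slc1a4 and Slc43a2 hold none of these letters. Further starts of Slc43a2 and Slc7a7 lie downstream of the windows shown, and for these only the match and its neighbours are given. The matches are TTCNNNNGAA of Slc43a2 at chr11:75531891-75531920, 211 bases before its start, and TGATGCAA of Slc7a7 at chr14:54417923-54417952, 243 bases before its start.
Slc43a2, downstream start: cgggatccgcTTCTATGGAAacgggctaat
Slc7a7, downstream start: tagaagcTGATGCAAcagcttccccgaggg
Of all 32851 windows of 250 bases in the promoter table, 5.85% held TTCNNNNGAA, 0.791% TGATGCAA and 0.883% TGATGAAA. The table held 43 of the 60 members, with 63 windows, and TTCNNNNGAA was in 4.76% of these, before starts of Slc1a7, Slc43a2 and Slc6a19, while each of the other motifs was in 1 window (1.59%), before starts of Slc7a7. A match is a description of the letters and not of binding.

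Intensities are the background-subtracted signals of the scanner software in scanner units. Differences are in log2, IL-4-treated minus untreated, after subtraction of the 75th percentile of the array, 9.84 for untreated and 9.94 for IL-4-treated BMDMs. The error given as spot SD is the spread of the log2 difference between repeat spots at a like signal, and it does not hold the spread between cultures. Each array had 43020 spots for genes, of which 59.8% and 57.4% were well above background. All 4 markers of the M2 response (Arg1, Retnla, Chil3 and Mrc1) were at least 2-fold higher with IL-4, and 6 of 7 listed macrophage markers were on the arrays and measured on both. Of these 6, 4 were at least 1.5-fold lower with IL-4, Itgam (-0.71), Lyz2 (-0.70), Mertk (-1.14) and Fcgr1 (-1.23), while Adgre1 and Csf1r differed by 0.17 and 0.09. The 4 fibroblast markers were well above background too, with a summed intensity of 303191 untreated and 295271 with IL-4 and differences from -0.34 to 0.51, and 4 of 5 neutrophil markers summed to 4632 and 3704. Of the other marker lists, 2 of 4 genes for T cells, 1 of 4 for B cells, 2 of 3 for eosinophils, 2 of 3 for mast cells and basophils and 1 of 3 for dendritic cells stood well above background by the same flag on either array. The part of such cells in the values below was not tested, and in RNA of a whole culture fewer cells of a type and less RNA per cell cannot be told apart. The 7 spike-in controls with a log2 signal above 8 differed by -0.40 to -0.08 after scaling, so that scaling on them moves every gene upward, by 0.29 at the median of all genes. Median scaling moves that median by 0.21, and no scaling by 0.10.

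Of the 60 members, 32 had signals well above background on both arrays, 1 on the untreated array alone, and 27 on neither. A signal that is not well above background is called dim. Over all named genes, 12741 of 20650 were measured on both arrays, and 31.9% were dim on both, against 45% of the members. Among the 32 members, 17 had a positive and 15 a negative difference, with a median of 0.056 against -0.014 for all named genes. The split depended on the scaling, since 25 of 32 were positive with median scaling and 27 of 32 with spike-in scaling, where 77.8% and 83.4% of all measured genes were positive as well. The median of the members lay 0.070 above that of all genes, a gap that scaling by 1 value per array cannot alter, and it was 0.058 with quantile normalization and 0.012 with normexp. Differences were small for most members, with 18 of 32 (56.2%) within 0.25 of 0, against 65.6% of all genes measured on both arrays. The differences of 12 members were higher and of 12 lower than 0 by more than 2 spot SDs, and 8 lay within that range. The same count was not made over all genes, so it does not set the members apart from other genes.

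**Figure D1:**
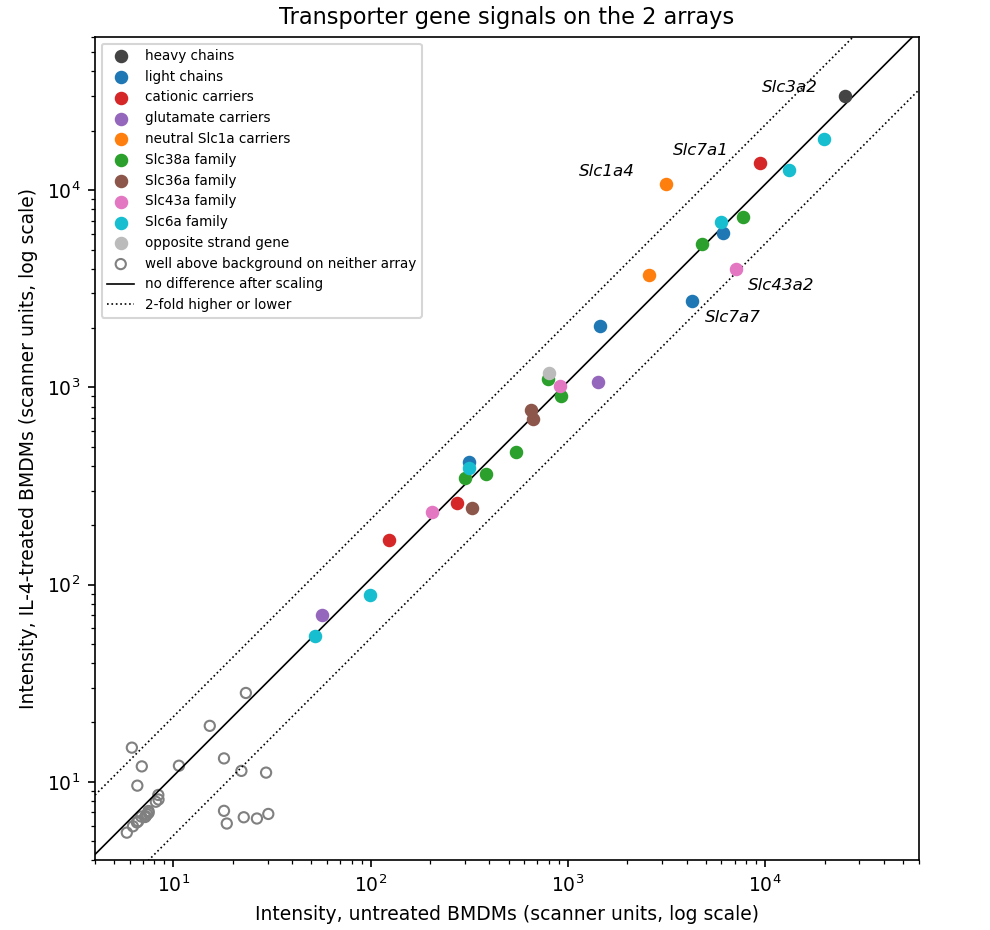
Intensity of 59 genes in untreated BMDMs (horizontal, scanner units, log scale) and in IL-4-treated BMDMs (vertical, scanner units, log scale), coloured by role, with open circles for the 27 genes dim on both arrays. The solid line marks no difference after scaling and the dotted lines 2-fold, and Slc1a4 is the filled point outside the dotted lines on the higher side.

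Of the 14070 named genes measured well above background on one array or both, 3.06% were at least 2-fold higher with IL-4 and 3.35% at least 2-fold lower. Of the 33 members that pass this filter, 1 was at least 2-fold higher (Slc1a4) and 0 were at least 2-fold lower. At 1.5-fold, 6.36% of genes were higher and 8.95% lower, and among the members 1 was higher and 3 lower, Slc43a2 and Slc7a7 among them. These shares of members lie near those of all genes. The filter decides the count on the lower side. With no filter on dim probes, 8 members were at least 2-fold lower and 2 higher, against 10.1% and 4.27% of all genes, and each of the 8 was dim on at least 1 array.

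The neutral carriers of the Slc1a family were both higher in IL-4-treated BMDMs. Slc1a4 had an intensity of 3140 ± 314 in untreated and 10727 ± 1073 in IL-4-treated BMDMs, where the errors are those estimated by the scanner software. These errors cover the measurement of the spot and not the spread between cultures. The IL-4 array was the higher, with a log2 difference of 1.67 (3.19-fold, spot SD 0.05). Of the 12741 genes measured on both arrays, 85 (0.667%) had a larger positive difference. Genes within 1 log2 unit of its signal had a median difference of 0.037. Slc1a4 was read from 1 probe in 1 spot, so no other probe speaks to its value. Across 13 other ways of processing its difference lay between 1.62 and 1.96. The other filters and probe rules among these could not move it, since its 1 probe was well above background on both arrays. Slc1a5, the sodium-dependent exchanger through which many cells take up glutamine, had an intensity of 2569 untreated and 3709 with IL-4, a difference of 0.43 (1.35-fold, spot SD 0.053). Its other probe, at 848 and 1255, gave 0.47, so both probes were higher by nearly the same amount.

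The heavy chain Slc3a2, also known as CD98, which brings the Slc7a light chains to the plasma membrane, had an intensity of 25452 untreated and 29962 with IL-4. The difference of 0.14 (spot SD 0.044) was positive under every scaling tried, from 0.044 with quantile normalization to 0.42 on the spike-in controls. Slc3a1, the heavy chain of the carrier for cystine and dibasic amino acids in kidney and gut, was well above background on neither array.

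The light chains divided by gene. Slc7a5, or LAT1, which exchanges glutamine for leucine and other large neutral amino acids, had an intensity of 1453 untreated and 2037 with IL-4, higher by 0.39 (1.31-fold, spot SD 0.059), and its dimmer probe went from 114 to 180, a difference of 0.56. Slc7a6, an exchanger of cationic for neutral amino acids together with sodium, had 316 and 416, a difference of 0.30 (spot SD 0.072). Slc7a7 (NM_011405), a light chain with the same mode of exchange, whose loss in people causes lysinuric protein intolerance, lay on the other side. Its intensity was 4255 ± 426 untreated and 2741 ± 274 with IL-4, a log2 difference of -0.73 (1.66-fold lower, spot SD 0.052), and 415 of the 12741 genes had a more negative one. The 2 carriers of this exchange therefore differed in opposite directions, on 1 probe each. The range of the Slc7a7 difference over the other settings was -0.79 to -0.45, and it was under 1.5-fold with median scaling (-0.52) and on the spike-in controls (-0.45).

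Slc7a8, or LAT2, a carrier of small and large neutral amino acids, was printed in 10 spots. Its spots ran from 5286 to 6645 with a median of 6183 untreated, and from 5592 to 6408 with a median of 6172 with IL-4. The spots of both arrays overlapped, and the scaled difference was -0.12, with an SD of 0.071 between its own spots, and turned positive (0.096 and 0.17) with median and spike-in scaling. The other 5 light chains (Slc7a9, Slc7a10, Slc7a12, Slc7a13 and Slc7a15), known mainly from kidney, gut and brain, were well above background on neither array.

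Among the cationic carriers, Slc7a1, or CAT1, the widely expressed carrier of arginine and lysine, had an intensity of 9465 ± 946 untreated and 13763 ± 1376 with IL-4. It was higher by 0.44 (1.36-fold, spot SD 0.046), and 944 of the 12741 genes had a larger positive difference. The brain carrier Slc7a3 had 273 and 259, a difference of -0.17 that was 0.040 with median scaling and 0.11 on the spike-in controls. Slc7a4, a protein related to these carriers, had 123 and 169, a difference of 0.36 with a spot SD of 0.12. Slc7a14 was well above background on neither array. Slc7a2, the inducible carrier of arginine and a homologue of Slc7a1, is no member by the rule but is set beside it here. It went from 110 to 825, a difference of 2.81 (6.99-fold, spot SD 0.081), so that Slc7a1 and Slc7a2 were both higher with IL-4, each against its own probe's untreated signal. Other carriers of cationic amino acids did not share 1 direction. Slc7a3 was lower with the scaling used, and of the light chains that exchange them Slc7a6 was higher (0.30) and Slc7a7 lower (-0.73).

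**Figure D2:**
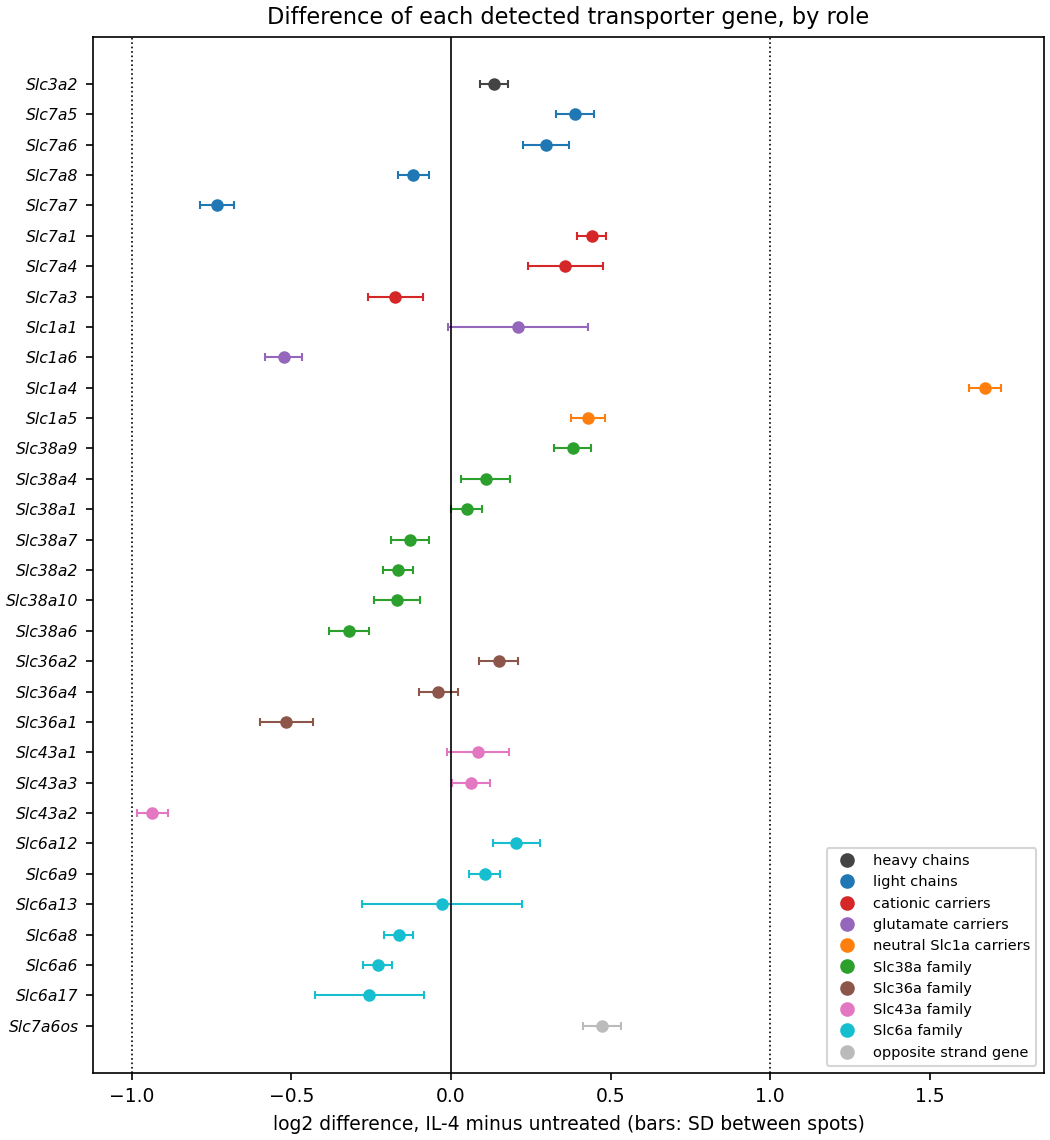
Log2 difference (horizontal, IL-4 minus untreated) of the 32 genes measured on both arrays, 1 gene per line and coloured by role, with bars for 1 SD between spots and dotted lines at 2-fold. Slc1a4 at 1.67 is the only point beyond a dotted line.

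Of the glutamate carriers, which clear the transmitter in brain, 2 of 5 were measured. Slc1a6 had 1428 untreated and 1064 with IL-4, lower by 0.52 (difference -0.52, 1.44-fold, spot SD 0.058). Slc1a1 was printed in 10 spots, which ran from 47.9 to 66.9 untreated and from 59.7 to 115 with IL-4. The ranges of its spots overlapped. The differences of single spots ran from 0.0084 to 0.97, with a median of 0.13, a mean of 0.21 and an SD of 0.28. None was thus negative with the scaling used, whereas the gene's difference was -0.099 with normexp. Slc1a3, the glutamate carrier of glia that has been described in macrophages as well, had an intensity of 18.0 and 7.13 and was dim on both arrays, as were Slc1a2 and Slc1a7.

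In the Slc38a family, sodium-driven carriers of glutamine and other small neutral amino acids, 7 of 11 genes were measured, 3 with a positive and 4 with a negative difference. Slc38a1 had 4787 untreated and 5306 with IL-4, a difference of 0.05 that became -0.019 with quantile normalization. Its other probes went from 85.7 to 102 (0.15) and from 717 to 712 (-0.11), so its direction was not settled. Slc38a2, the carrier that many cells induce when amino acids are short, had 7680 and 7330, a difference of -0.17 that turned to 0.047 with median scaling and 0.12 on the spike-in controls. Slc38a9, a lysosomal protein that senses arginine for mTORC1, had 793 and 1106, higher by 0.38 (1.30-fold, spot SD 0.059). The other probes of Slc38a9 gave 0.60 (201 and 328) and 0.052 (86.2 and 95.8), all positive but unequal in size.

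The lysosomal glutamine carrier Slc38a7 had 927 and 908, a difference of -0.13, and Slc38a10 had 382 and 365, a difference of -0.17. Both were positive with median and spike-in scaling. Slc38a6 had 545 untreated and 468 with IL-4, a difference of -0.32 (1.25-fold lower, spot SD 0.061). Slc38a4 had 300 and 346, a difference of 0.11 within 2 spot SDs of 0. Slc38a3, Slc38a5, Slc38a8 and Slc38a11 were dim on both arrays, with 30.2 and 6.88 for Slc38a5, a glutamine carrier.

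Of the Slc36a family, carriers that move small amino acids with protons, Slc36a1 of the lysosome was lower on both of its probes. Its intensity was 328 untreated and 246 with IL-4, lower by 0.52 (difference -0.52, 1.43-fold, spot SD 0.083), and its dimmer probe, at 49.5 and 32.9, gave -0.69. Slc36a2 had 650 and 772, a difference of 0.15. Slc36a4 had 663 and 691 on its brighter and 53.9 and 59.3 on its dimmer probe, with differences of -0.04 and 0.038, on opposite sides of 0 and within 1 spot SD of it.

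**Figure D3:**
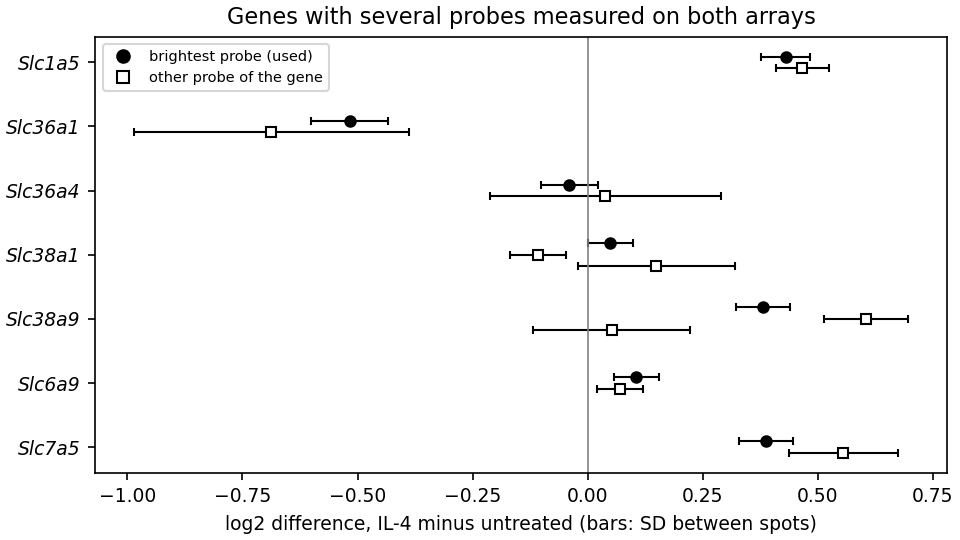
Log2 difference (IL-4 minus untreated) of every probe of the 7 genes with 2 or more probes measured on both arrays, with bars for 1 SD between spots. Probes of Slc36a4 and Slc38a1 lie on both sides of 0, and those of the other 5 genes lie on 1 side.

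In the Slc43a family, Slc43a2 (NM_001199283), or LAT4, which lets branched-chain amino acids, phenylalanine and methionine pass down their gradient, had the most negative difference of the members measured on both arrays. Its intensity was 7092 ± 709 untreated and 3972 ± 397 with IL-4, a log2 difference of -0.94 (1.91-fold lower, spot SD 0.05). A more negative difference was found for 224 of the 12741 genes (1.76%), and genes within 1 log2 unit of its signal had a median of 0.032. Over the other settings it lay between -0.995 and -0.65, so it stayed under 2-fold and above 1.5-fold. Slc43a1, or LAT3, with similar substrates, had 204 and 232, a difference of 0.08 that was within 1 spot SD of 0 and negative (-0.046) with normexp. Slc43a3, which carries purine bases, had 913 and 1022, a difference of 0.06 (spot SD 0.059).

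The Slc6a family holds carriers of transmitters, taurine, creatine and neutral amino acids driven by sodium and chloride. Of its 19 genes, 12 (63.2%) were dim on both arrays, against 31.9% of all named genes. The carrier of taurine, Slc6a6, had an intensity of 19879 untreated and 18159 with IL-4, a difference of -0.23 (1.17-fold lower, spot SD 0.045), which was 0.056 on the spike-in controls. Slc6a8, the carrier of creatine, had 13270 and 12689, a difference of -0.16 that was 0.050 with median and 0.12 with spike-in scaling. Slc6a9, the carrier of glycine, had 5998 and 6916 on its brighter and 5205 and 5856 on its other probe, with differences of 0.11 and 0.07. Each of these 3 genes thus differed by 1.17-fold or less with the scaling used. The largest differences under other settings were -0.33 for Slc6a6 and -0.26 for Slc6a8, with quantile normalization. For Slc6a9 the largest was 0.39, on the spike-in controls.

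Slc6a12, a carrier of betaine and GABA, had 316 and 390, a difference of 0.20 (spot SD 0.074). Slc6a13, another GABA carrier, had 52.2 and 54.8, a difference of -0.03 that was 0.19 with median scaling. The vesicle carrier Slc6a17 had 98.7 and 88.6, a difference of -0.26 with a spot SD of 0.17 that was 0.030 on the spike-in controls.

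The 27 members well above background on neither array had intensities from 5.80 to 30.2 untreated and from 5.53 to 28.2 with IL-4, where the lowest signals well above background over all probes were 29.2 and 27.9. No fold is given for them. Slc7a6os, the opposite-strand gene among the members, had 800 and 1190, a difference of 0.47 (1.39-fold). Without it, the median of the 31 transporter genes measured on both arrays was 0.049.

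**Figure D4:**
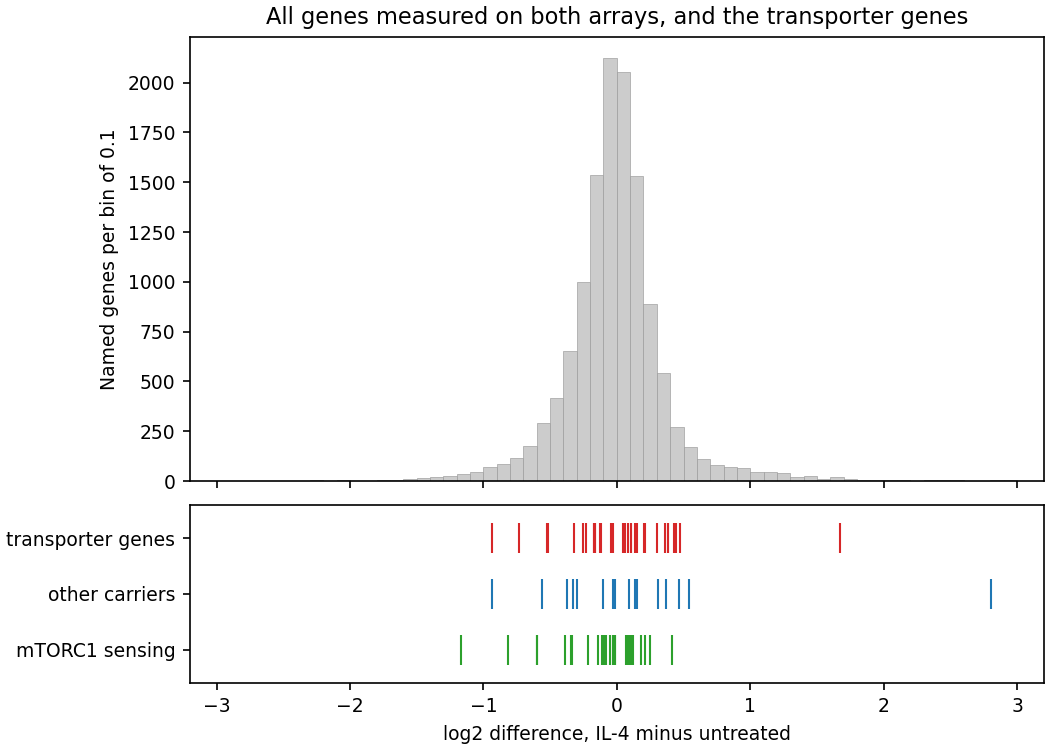
Number of named genes measured on both arrays per bin of 0.1 in log2 difference (upper panel, IL-4 minus untreated; 14 of 12741 genes lie outside the axis), and each transporter gene, other amino acid carrier and mTORC1 sensing gene as a tick on the same axis (lower panel). Most ticks lie in the central bulk of all genes, and Slc7a2 and Slc1a4 carry the ticks farthest to the right.

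A list of 21 other amino acid carriers, among them those of mitochondria, lysosomes and vesicles and the pair left out by the rule, was read beside the members. Of these, 16 were measured on both arrays, 8 with a positive and 8 with a negative difference and a median of 0.041, and 5 were dim on both. At least 2-fold higher was 1 (Slc7a2), against 3.06% of all genes. At least 1.5-fold lower was 1, the carrier of aromatic amino acids Slc16a10, against 8.95%. Slc16a10 had 1049 untreated and 586 with IL-4, a difference of -0.94 (1.92-fold lower, spot SD 0.061), close to that of Slc43a2. Slc15a3, a lysosomal carrier of histidine and peptides, had 9819 and 15291, a difference of 0.54, while its homologue Slc15a4 had 14731 and 12166, a difference of -0.38. The cystine and glutamate exchanger Slc7a11 had 104 and 111, a difference of -0.01.

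Genes of amino acid sensing by mTORC1 were read as a list of 31, of which 29 were measured on both arrays, 10 with a positive and 19 with a negative difference and a median of -0.054, where 47.7% of all genes measured on both were positive. Of the 30 that pass the filter on dim probes, none was at least 1.5-fold higher, 5 were at least 1.5-fold lower and, among these, 2 at least 2-fold, against 8.95% and 3.35% of all genes. Tsc2, a subunit of the complex that restrains mTORC1, had 131 and 62.5, a difference of -1.17 (spot SD 0.17). Rragd, a GTPase that recruits mTORC1 to the lysosome, went from 81.6 to 26.6, not well above background, and was at least 3.14-fold lower. The leucine sensor family member Sesn1 had 6698 and 4079, a difference of -0.82 (1.76-fold lower). Fnip2 and Depdc5 were both lower by 0.60 (differences of -0.60 and -0.60), at 1.52-fold and 1.51-fold just past the limit. The counts of this list and of the other carriers were made only with the scaling used. Median and spike-in scaling move every gene upward, by 0.21 and 0.29 at the median of all genes. Either shift takes Fnip2 and Depdc5 inside the limit, so the counts and the split of signs depend on the scaling.

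**Figure D5:**
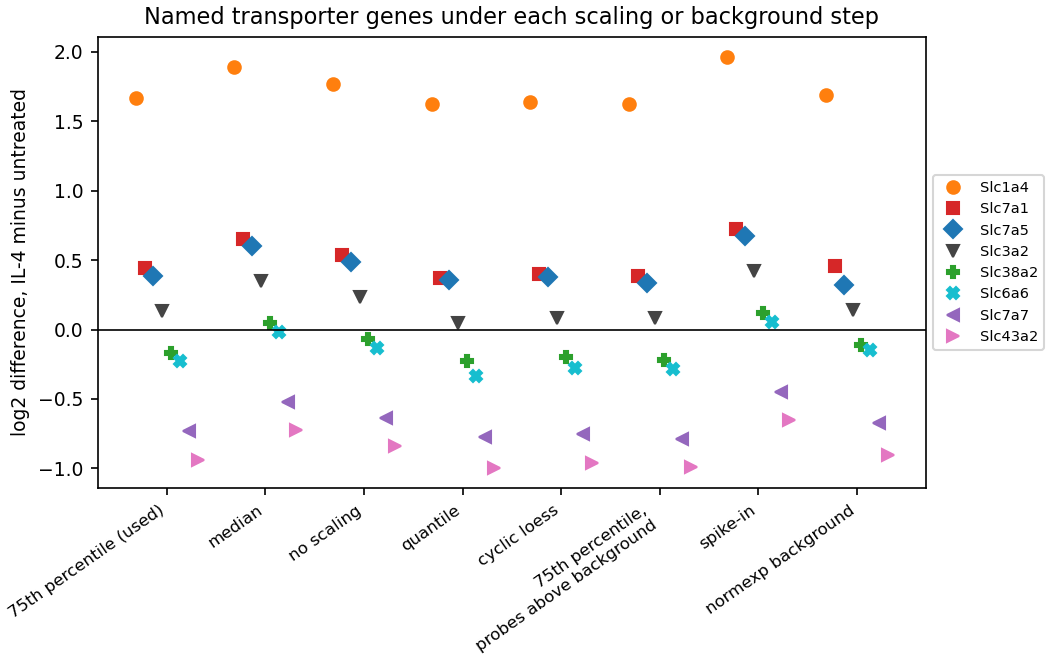
Log2 difference (vertical, IL-4 minus untreated) of 8 named transporter genes under the scaling used and under other scaling or background steps (horizontal). Slc1a4 stays above 1.6 and Slc43a2 below -0.6 in every column, whereas Slc38a2 and Slc6a6 cross 0.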

How the data were processed

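Untreated BMDMs and BMDMs exposed to IL-4 (18 h) gave 1 single-colour array each, and arrays were mapped to conditions by the sample labels. The authors deposited scanner intensity from Feature Extraction 10.10.1.1 (default settings), background-subtracted and detrended within each array and not scaled between arrays, together with the flags set by the software. A second deposited table holds log2 values as processed by the authors, whose column medians are 0.161 and 0.016, with scale and centring not stated. Its difference between columns matched that of the scanner intensity for all 60 members within 0.000001 after an offset of 0.000564, so its direction is IL-4 minus untreated.

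After removal of control spots and flagged outliers, log2 intensities were averaged over the spots of a probe and scaled by subtracting the array's 75th percentile. A probe was well above background when most of its spots carried that flag. Where this held on 1 array only, the difference is a bound against whichever is higher, the dim signal or the array's lowest one flagged well above background. Of 39424 probes, 27223 were named through RefSeq accessions with a table of GRCm38.p6, used for names and promoter windows. The array itself was annotated on mm9. Spot SD is the median over the probes printed in 10 spots (399 on the arrays) within 1 log2 unit of signal, 0.074 at their median. Members and lists were chosen with earlier results of these data known. Named were all members at least 1.5-fold different, the brightest 2 of each role, genes with discordant probes and members with a known bearing on macrophages, and the remaining measured members were added. The values of 1 item are not reported here. No test between conditions was run. Counting was checked on simulated data. Alternatives were other scalings, normexp with an offset of 50 (on median pixel intensity, the one the files hold), other filters, other probe rules, flagged spots kept and the authors' values. Python 3.11.15, pandas 2.3.3, numpy 2.4.6, R 4.3.3 and limma 3.58.1 were used.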

Additional observations from a re-analysis of the deposited data

How the results depend on the processing

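Slc1a4 was at least 2-fold higher, and Slc43a2 at least 1.5-fold lower, under every setting tried, and no member called at 1.5-fold changed direction. For Slc1a4 and Slc43a2 the filters and probe rules could not alter the value, since each has 1 probe, well above background on both arrays. Of the 33 members with a value, 20 kept their sign in every setting and 13 changed it in at least 1. Sign changes were not counted over all genes. Of all genes measured on both arrays, 47.7% were positive as reported, 77.8% with median and 83.4% with spike-in scaling. The count of members at least 1.5-fold higher was 6 with median scaling, against 10.9% of all genes, and 7 with spike-in scaling (13.99%). It was 3 of 60 with no filter on dim probes (7.59%) and 2 with the probe of largest difference (6.91%). The count at least 1.5-fold lower, 3 as reported, was 1 with spike-in scaling, against 4.58% of all genes. It was 2 under median scaling (5.40%), under quantile normalization (6.06%) and over genes measured on both arrays only (5.27%). It was 4 with the median over probes (9.17%) and with the probe of largest difference (11.1%), and 10 of 60 with no filter (15.5%). At 2-fold, no filter gave 2 higher and 8 lower, against 4.27% and 10.1% of all genes. The authors' processed values, taken without bounds, gave 1 lower, against 7.07%. The median difference of the members was 0.27 with median scaling, 0.156 with no scaling, 0.342 with spike-in scaling and -0.0256 with normexp. The first 3 follow the shift of all genes under these scalings, and for normexp the cause was not tested. No paired analysis was possible because there is 1 array on each side, and leaving out a replicate was not run for the same reason. The 27 members dim on both arrays, at up to 30.2 scanner units, have no fold.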
